A study of Mus musculus with 4 samples.

Results

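The genes examined here encode partners of HAT1, the acetyltransferase of newly made histone H4, and the chaperones that take histones H3 and H4 from their synthesis to DNA. The 10 genes were Rbbp4, Nasp, Asf1a, Asf1b, Ipo4, Chaf1a, Chaf1b, Hira, Cabin1 and Ubn1. An accessible region of the ATAC-Seq table, called a site here, belonged to a gene if it overlapped the gene body or lay within 10 kb of any of its transcription start sites (TSSs) in the GENCODE annotation of mm10. This position rule used no measured value and gave 37 of 82325 sites, from 2 sites each at Rbbp4 and Nasp to 7 at Cabin1. Of the 37 sites, 26 overlapped the gene body and 11 lay outside it. Among the 11 outside, 7 were closer to the TSS of another protein-coding gene, so nearness alone did not tie them to the chaperone gene.

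ATAC-Seq, a readout of open chromatin that rests on insertion of adapters by the transposase Tn5, had been applied to 4 lines of mouse embryonic fibroblasts (MEFs) on a C57bl6 background. There were 2 HAT1+/+ lines (WT) and 2 HAT1-/- lines (KO), 1 library each, to ask how loss of HAT1 alters accessibility. Both genotypes had been derived from mid-gestation embryos and immortalized with a viral large T antigen, which binds the p53 and retinoblastoma proteins, so the lines of both genotypes are a model of cells under that antigen. The cells had been grown in DMEM with serum. The labels did not say which embryos or litters gave the lines. With 1 library per line, the spread behind a p-value here joins differences between lines of a genotype with differences between libraries. The limma fit used below also draws that spread in part from the other sites.

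Values are normalized counts, meaning reads in a site divided by a factor for the library and rounded. The libraries had similar totals, between 8008069 and 8516263 normalized counts, but different depths. About 9420000 (WT replicate 1) and 11400000 (WT replicate 2) reads lay in sites, compared with 7830000 (KO replicate 1) and 5670000 (KO replicate 2). All 10 fibroblast marker genes had a promoter site, with a summed value of 2698 to 2966 normalized counts in WT and 3080 to 3089 in KO. Vim was the strongest of them, with 759 and 810 in WT and 977 and 919 in KO. Thy1, Pdgfrb and Twist2 had log2 fold changes below 0, and the sums were not tested between genotypes. Of 12 marker genes of epithelium, blood, endothelium and nerve, 9 had a promoter site, and Ptprc, Spi1 and Sox10 had none. Over the libraries their sums were 112 to 196 for epithelium (3 sites), 9 to 27 for blood (1), 110 to 194 for endothelium (3) and 197 to 223 for nerve (2). The promoter site of Hat1 itself held 390 and 384 normalized counts in WT and 438 and 368 in KO, so the deletion did not remove this site and its value checks no label.

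New H3 and H4 are folded as dimers and handed along a chain of chaperones. NASP protects a soluble pool of H3-H4, HAT1 with an RbAp subunit acetylates H4 on its tail, ASF1 carries the dimer, and importin 4 takes the complex into the nucleus. There CAF-1 deposits H3.1 behind the replication fork, while the HIRA complex deposits the variant H3.3 outside replication. Several of these genes are known to be expressed most strongly in S phase. Promoter elements known from cell cycle genes include those bound by E2F, by NF-Y and by the complexes that recognize the cell cycle homology region (CHR).

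RefSeq promoter windows were found for all 10 genes. Each window runs from 250 bases before to 50 bases after the RefSeq start on GRCm38.p6, the assembly also called mm10. For 9 of the 10 genes all 300 bases lay inside the accessible promoter site described below, and for Ipo4 283 bases did. Windows of 5 genes are shown: Asf1a and Asf1b because they are paralogues, Rbbp4 because its site had the lowest p-value, Chaf1b because its GC content was the highest of the 10, and Cabin1 as the only promoter that was lower in both KO lines. Sequences read 5′ to 3′ on the strand of the gene. Capitals mark, on either strand, the NF-Y word CCAAT, the GC box GGGCGG and the CHR word TTTGAA.
The windows are Rbbp4 at chr4:129335321-129335620 (minus strand), Asf1a at chr10:53596711-53597010 (plus), Asf1b at chr8:83955444-83955743 (plus), Chaf1b at chr16:93883651-93883950 (plus) and Cabin1 at chr10:75764308-75764607 (minus).
Rbbp4: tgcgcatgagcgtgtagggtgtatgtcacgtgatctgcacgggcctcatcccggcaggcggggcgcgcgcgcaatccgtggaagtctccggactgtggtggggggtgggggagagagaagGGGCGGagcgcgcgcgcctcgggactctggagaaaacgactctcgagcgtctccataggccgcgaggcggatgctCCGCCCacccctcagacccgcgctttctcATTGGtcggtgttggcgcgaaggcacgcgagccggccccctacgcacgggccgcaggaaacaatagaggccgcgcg
Asf1a: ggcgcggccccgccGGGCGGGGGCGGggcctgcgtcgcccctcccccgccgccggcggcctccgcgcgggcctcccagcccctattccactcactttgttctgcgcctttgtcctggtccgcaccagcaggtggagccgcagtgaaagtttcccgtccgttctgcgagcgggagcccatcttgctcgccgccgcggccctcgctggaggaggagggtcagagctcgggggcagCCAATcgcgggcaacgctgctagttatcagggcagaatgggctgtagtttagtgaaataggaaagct
Asf1b: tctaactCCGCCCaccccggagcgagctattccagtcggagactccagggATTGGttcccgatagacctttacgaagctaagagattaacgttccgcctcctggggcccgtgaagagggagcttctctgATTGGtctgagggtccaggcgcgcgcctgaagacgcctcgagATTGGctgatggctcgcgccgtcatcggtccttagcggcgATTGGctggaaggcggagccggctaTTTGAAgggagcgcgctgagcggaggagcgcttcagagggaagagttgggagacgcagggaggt
Chaf1b: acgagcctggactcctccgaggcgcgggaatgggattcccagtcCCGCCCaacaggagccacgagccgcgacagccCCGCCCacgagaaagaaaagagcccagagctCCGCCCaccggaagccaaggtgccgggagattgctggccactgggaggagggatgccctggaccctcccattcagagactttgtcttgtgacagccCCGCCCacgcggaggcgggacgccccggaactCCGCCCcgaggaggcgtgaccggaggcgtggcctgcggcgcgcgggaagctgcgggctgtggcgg
Cabin1: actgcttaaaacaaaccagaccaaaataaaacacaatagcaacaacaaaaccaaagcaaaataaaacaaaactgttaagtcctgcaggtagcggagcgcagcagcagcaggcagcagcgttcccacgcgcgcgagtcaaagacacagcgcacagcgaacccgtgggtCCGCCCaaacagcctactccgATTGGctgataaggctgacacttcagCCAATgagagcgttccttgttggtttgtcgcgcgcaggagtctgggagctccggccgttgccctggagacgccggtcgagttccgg

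The Asf1b window held 4 CCAAT words, all on the strand opposite to the gene and starting at positions -200, -121, -79 and -39 relative to the start, together with 1 TTTGAA and 1 GC box. Windows with 4 or more CCAAT made up 1.06% of the 32851 windows in the table, and windows with both CCAAT and TTTGAA made up 6.95%. Asf1a, its paralogue, had 1 CCAAT and a pair of adjoining GC boxes. The Chaf1b window had 5 GC boxes, a number reached by 2.71% of windows, and no CCAAT.

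Across the 10 genes CCAAT was found in 7 windows (37.4% of all windows), the GC box in 8 (35.7%), TTTGAA in Nasp, Asf1b and Ipo4 (17.9%) and the ETS word CCGGAAG in Ipo4, Chaf1b and Hira (8.86%). None of the 10 held an E2F word, searched as TTTCCCGC or its variants TTTGGCGC and also TTTCGCGC, which 1.84% of windows held. Only these exact words were counted, so an E2F site spelled with any other letter would be missed. The 10-letter NRF1 motif, held by 0.971% of windows, was also not found in them. Both strands were searched and overlapping words were each counted. GC content ran from 48.3% in Nasp to 70.3% in Chaf1b, against a median of 52.7% over all windows. The shares over all windows are not matched to the 10 genes in GC content, so no enrichment is read from them. These are matches of letters in a short window and describe no binding.

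The promoter site of a gene was taken as the strongest site within 3 kb of one of its TSSs, which gave 10 promoter sites and 27 other sites. Sites are numbered along the chromosome within each gene. No site of the 10 genes was differentially accessible, which asked for a log2 fold change (KO against WT) of 1 or more in either direction together with an unadjusted limma p under 0.01. By this rule 0 of 37 sites were called, and 0.373% of all sites were. At an unadjusted p under 0.05 with no fold filter the count was also 0, against 3.13% of all sites. After Benjamini-Hochberg adjustment over all sites no site of the table passed 0.05 (0%). The adjusted p was 1 at every one of the 37 sites, and the unadjusted p at the promoters ran from 0.0764 at Rbbp4 to 0.693 at Hira.

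Log2 fold changes of the 37 sites ranged from -0.62 to 0.53, with 19 above 0 and 18 below. Their median was 0.05, against 0.01 over all sites, and it turned to -0.02 when the libraries were scaled to equal totals and to -0.03 after quantile normalization. Both KO libraries lay below both WT libraries at 7 of the 37 sites (18.9%, against 14.3% of all sites) and above them at 7 (18.9%, against 14.6%). The 95% interval of the log2 fold change lay within -1 and 1 at 26 sites, including all 10 promoter sites. At the promoters the widest bounds were 0.669-fold, at Ipo4, and 1.54-fold, at Asf1a. A change of 2-fold or more therefore lay outside the interval of each promoter, while at 11 other sites it did not. These bounds depend on the intensity trend in limma, which sets the expected spread by signal. Without the trend the estimates were the same but the unadjusted limma p was higher at every promoter, such as 0.399 against 0.0764 at Rbbp4. Bounds without the trend were not computed.

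**Figure D1:**
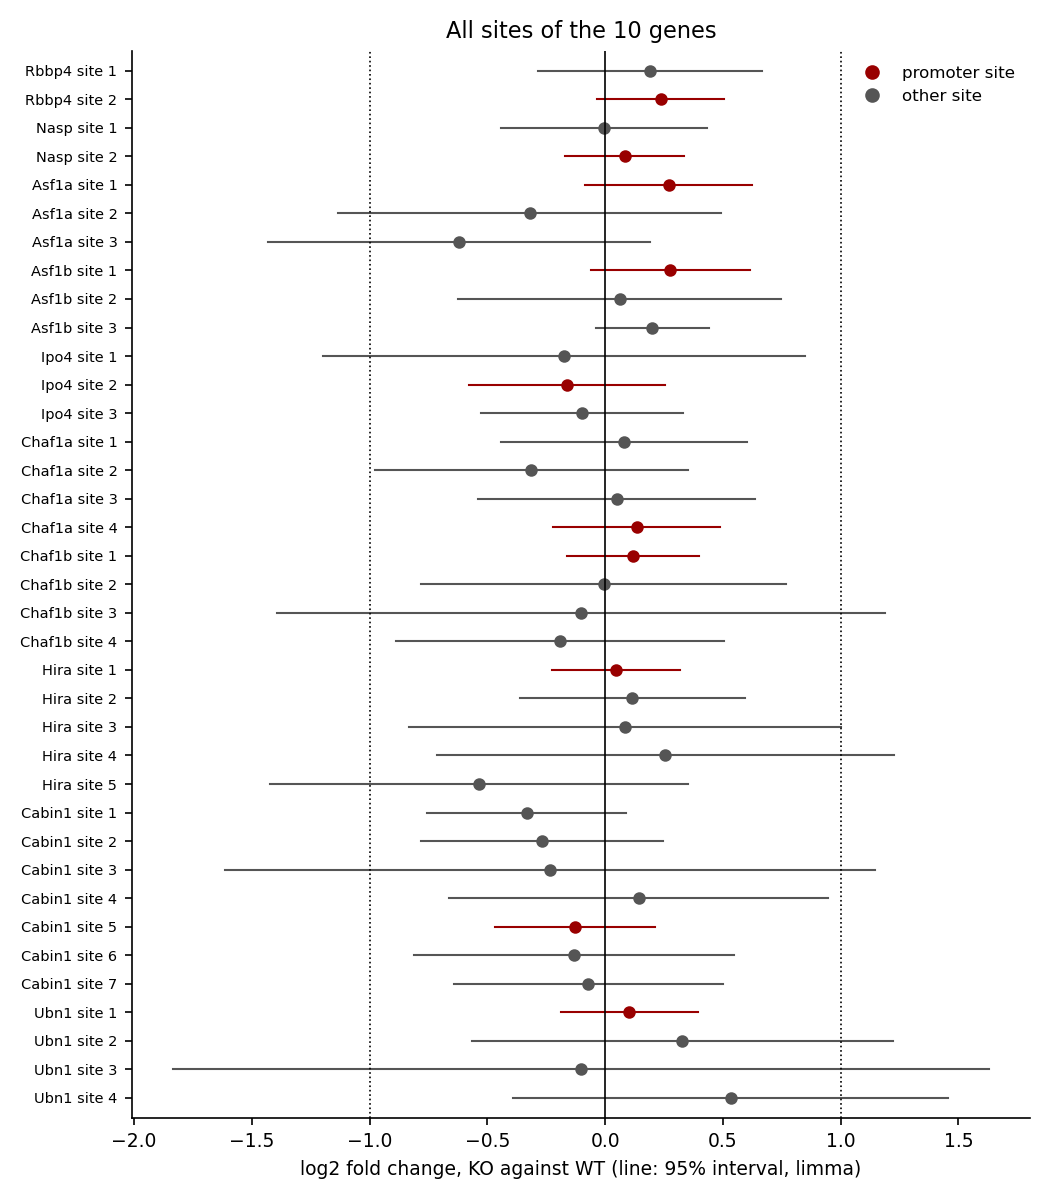
Log2 fold change of KO against WT at each of the 37 sites, with points for the limma estimate, lines for its 95% interval and dotted lines at a log2 fold change of -1 and 1. Every estimate lies between -0.62 and 0.53, and the intervals of all 10 promoter sites, in red, stay within the dotted lines.

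Rbbp4 encodes RBBP4 (RbAp48), a WD-repeat protein that binds H4 and belongs to CAF-1 and to several deacetylase and Polycomb complexes. It is closely related to RBBP7 (RbAp46), the usual subunit of the HAT1 complex. The Rbbp4 promoter site (chromosome 4, 129334851 to 129336191) held 545 and 582 normalized counts in WT and 617 and 713 in KO. Both KO lines were above both WT lines, KO replicate 2 by more than KO replicate 1. The log2 fold change was 0.24 (SE 0.11, n = 2 lines per genotype), with an unadjusted p = 0.0764 and an adjusted p = 1 in limma. This site also holds the TSS of Zbtb8os, and accessibility of the 2 genes cannot be separated there. The other Rbbp4 site, over an exon inside the gene (129324637 to 129325240), held 186 and 223 normalized counts in WT and 223 and 242 in KO, with a log2 fold change of 0.19 (SE 0.20). Its groups met at 223 and were not separate.

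Nasp encodes the chaperone that keeps soluble H3-H4 from being degraded. Its promoter site (chromosome 4, 116626638 to 116628462), the longest of the 10 at 1825 bp, held 526 and 505 normalized counts in WT and 563 and 529 in KO. The KO lines were just above the WT lines, the closest pair across genotypes being 526 and 529. The log2 fold change was 0.08 (SE 0.10). A second Nasp site lies beyond the end of the gene at the TSS of Ccdc17, with 269 and 284 normalized counts in WT and 307 and 247 in KO, which overlapped.

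Asf1a and Asf1b encode the paralogous ASF1 chaperones, which pass H3-H4 on to CAF-1 or HIRA. ASF1B is the form tied to proliferating cells. The Asf1a promoter site (chromosome 10, 53596350 to 53597627, also the TSS of Mcm9) held 422 and 402 normalized counts in WT and 444 and 556 in KO. At the Asf1b promoter site (chromosome 8, 83954993 to 83956052, also the TSS of the noncoding gene Gm10644) the values were 706 and 783 in WT and 786 and 1033 in KO. At both paralogues the KO lines were higher without overlap, with KO replicate 2 well above the rest and KO replicate 1 near the WT lines. The log2 fold changes were 0.27 (SE 0.15) for Asf1a and 0.28 (SE 0.14) for Asf1b, the highest pair among the 10 promoters on the deposited scaling. Without KO replicate 2 they were 0.11 and 0.08, and after quantile normalization 0.12 and 0.03.

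Inside Asf1a the 2 other sites had the opposite sign. Asf1a site 3, in an intron (53598901 to 53599177), held 84 and 65 normalized counts in WT and 43 and 53 in KO. Asf1a site 2, just past the promoter site (53597653 to 53597881), held 59 and 58 in WT and 53 and 41 in KO. Both KO lines were below both WT lines at each. The log2 fold change of site 3, -0.62 (SE 0.33), was the lowest of the 37, and that of site 2 was -0.32 (SE 0.33). These are weak sites near the all-site median of 52 normalized counts. Whether they differ from the promoter site in response was not tested.

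All 3 Asf1b sites had log2 fold changes above 0. Asf1b site 3 (83972424 to 83973225) lies past the end of the gene, at the TSS of Prkaca, a catalytic subunit of protein kinase A. It held 535 and 530 normalized counts in WT and 591 and 633 in KO. The KO lines were higher without overlap, and the log2 fold change was 0.20 (SE 0.10), with the second lowest unadjusted p of the 37 sites, 0.0887 in limma. Asf1b site 2, in an intron, held 82 and 86 in WT and 95 and 81 in KO, where the groups overlapped.

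Ipo4 encodes importin 4, which carries H3-H4 bound to ASF1 into the nucleus. Its promoter site (chromosome 14, 55635064 to 55635917) was the weakest promoter of the 10 by mean value, with 348 and 292 normalized counts in WT and 266 and 305 in KO. WT replicate 1 was the highest library and the other 3 lay together, so the groups overlapped. The log2 fold change was -0.16 (SE 0.17). WT replicate 1 was also highest at the other 2 Ipo4 sites, with 374 against 291 to 334 normalized counts at the TSS of Tm9sf1 and 33 against 23 to 29 at the weak site inside the gene. At the median site of chromosome 14, WT replicate 1 exceeded the remaining 3 libraries' mean by 0.37 on the log2 scale. The part of this difference in the Ipo4 values was not tested. With chromosome medians subtracted the Ipo4 promoter gave a log2 fold change of 0.05, so its sign did not hold.

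Chaf1a and Chaf1b encode the large and middle subunits of CAF-1, which PCNA draws to replicating DNA. The Chaf1a promoter site (chromosome 17, 56039983 to 56040880) held 319 and 341 normalized counts in WT and 340 and 385 in KO. The groups overlapped by 1 normalized count, and the log2 fold change was 0.13 (SE 0.15). For Chaf1b (chromosome 16, 93883394 to 93884543) the values were 466 and 451 in WT and 523 and 474 in KO, higher in KO without overlap, with a log2 fold change of 0.12 (SE 0.12). Neither site holds another gene's TSS.

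The other 3 Chaf1a sites lie upstream, nearest to Sh3gl1. The strongest, at the Sh3gl1 TSS, held 218 and 194 normalized counts in WT and 176 and 257 in KO, so that the KO lines lay on either side of the WT lines. Downstream of Chaf1b, site 3 (93912127 to 93912524) held 63 and 71 in WT but 36 and 107 in KO. The KO lines thus differed from each other by -1.55 on the log2 scale, the largest difference between KO lines at the 37 sites, around similar group means. Chaf1b site 4 (93913863 to 93914546), the strongest of its sites outside the promoter, held 113 and 171 in WT and 121 and 122 in KO, where it was the WT lines that differed.

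Hira, Cabin1 and Ubn1 encode the 3 core parts of the HIRA complex: HIRA the scaffold, CABIN1 a large subunit first known as an inhibitor of calcineurin, and UBN1 the subunit that recognizes H3.3. The Hira promoter site (chromosome 16, 18876257 to 18877279, also the TSS of Mrpl40) was the most even of the 10, with 483 and 450 normalized counts in WT and 483 and 480 in KO. The log2 fold change was 0.05 (SE 0.11) and turned to -0.02 with equal totals. A second site just downstream, Hira site 2, held 245 and 238 in WT and 229 and 299 in KO, which overlapped. Of the 5 Hira sites 4 had a log2 fold change above 0. The 1 below was Hira site 5, a weak site in an intron, with 50 and 41 in WT and 33 and 29 in KO. Both KO lines were lower there, with a log2 fold change of -0.54 (SE 0.37).

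Cabin1 had the only promoter site at which both KO lines were lower. The site (chromosome 10, 75763964 to 75764657) held 337 and 348 normalized counts in WT and 310 and 317 in KO, a log2 fold change of -0.13 (SE 0.14). Of the 7 Cabin1 sites 6 had a log2 fold change below 0, although none had p under 0.05. Cabin1 site 1 (75667314 to 75668326), at an internal TSS far into the gene, held 258 and 265 in WT and 215 and 200 in KO. Both KO lines were lower there by a wider margin, with a log2 fold change of -0.33 (SE 0.17). Cabin1 site 2 (75704102 to 75705003), in an intron, held 269 and 344 in WT and 222 and 287 in KO, which overlapped, with -0.27 (SE 0.21).

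The Ubn1 promoter site (chromosome 16, 5049439 to 5050612, also the TSS of Glyr1) held 479 and 461 normalized counts in WT and 472 and 540 in KO. KO replicate 2 was highest, KO replicate 1 lay between the WT lines, and the log2 fold change was 0.10 (SE 0.12). Ubn1 site 4 (5085205 to 5085772), over an exon near the end of the gene, had the highest estimate of the 37 sites, 0.53 (SE 0.38). Its values were 47 and 68 in WT and 104 and 65 in KO, and the estimate rested on KO replicate 1, since KO replicate 2 lay inside the WT range. Ubn1 site 3, the weakest of the 37, held 9 and 17 in WT and 12 and 11 in KO, and rested on about 7.3 reads in its shallowest library.

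**Figure D2:**
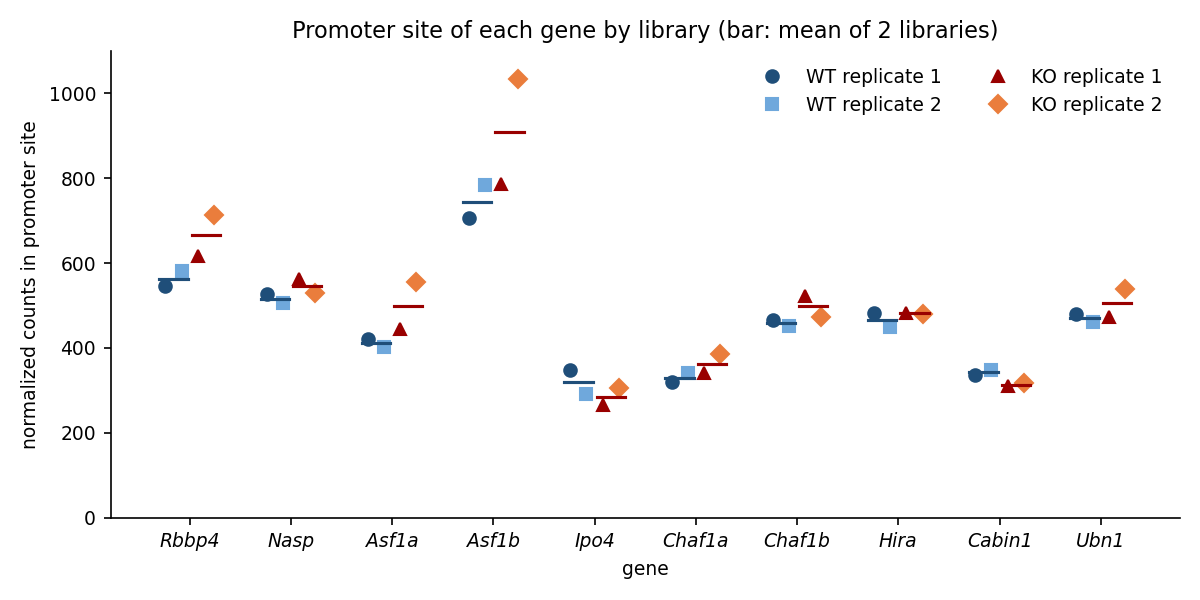
Normalized counts in the promoter site of each gene, with 1 point per library and a bar at the mean of the 2 libraries of a genotype. Asf1b stands above the other genes in every library, KO replicate 2 is the highest library at Rbbp4, Asf1a, Asf1b, Chaf1a and Ubn1, and both KO points lie below both WT points only at Cabin1.

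Taken as a list, 8 of the 10 promoter sites had log2 fold changes above 0 and 2 (Ipo4 and Cabin1) below. This split depended on the scaling, with 7 above 0 with equal totals, 4 after quantile normalization and 9 with chromosome medians subtracted. The median over the promoters was 0.11. Single estimates also moved with the libraries used. As each library was left out in turn, the log2 fold change ran from 0.13 (without KO replicate 2) to 0.34 (without KO replicate 1) at Rbbp4, and that pair of omissions also bounded Asf1a (0.11 to 0.43), Asf1b (0.08 to 0.47), Chaf1a (0.04 to 0.22) and Ubn1 (0.01 to 0.20). It ran from 0.04 (without KO replicate 1) to 0.13 (without KO replicate 2) at Nasp and from 0.05 to 0.19 at Chaf1b, with the same omissions. Ipo4 ran from -0.29 (without WT replicate 2) to -0.04 (without WT replicate 1) and Cabin1 from -0.15 to -0.10. After quantile normalization Rbbp4 was 0.05, Chaf1a 0.02, Ipo4 -0.27 and Cabin1 -0.24. Both KO lines exceeded both WT lines at 5 promoters (Rbbp4, Nasp, Asf1a, Asf1b and Chaf1b) and lay under them at 1. These counts have to be read against promoters of similar strength. The reference took 1 promoter site per protein-coding gene, with a mean of at least 303 normalized counts, that of the weakest promoter here. It held 5166 genes, and a site shared by several genes counted once for each. Of these 5166 promoters, 82.1% had a log2 fold change above 0 and the median was 0.13. Both KO lines were higher at 43.2% of them and lower at 3.87%. The share of the 10 promoters higher in both KO lines, 50%, was thus near that of strong promoters in general, and with 10 sites nothing particular to the chaperone genes can be read from it.

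Over the whole table the fold change was higher at stronger sites. In bins of 0.5 on the log2 scale of the mean value, the median log2 fold change was 0.06 in the bin centred on 7.25, 0.13 in that on 8.75 and 0.24 in that on 9.75, which holds the Asf1b promoter. KO replicate 2, the shallowest library, was the highest of the 4 at 55.7% of the 5166 strong promoters and at 5 of the 10 here. With quantile normalization the median of the strong promoters became -0.02 (44.1% above 0) and that of the 10 promoters -0.04. With equal totals the medians were 0.06 (66.8% above 0) and 0.04. Whether library depth has a part in the shift was not tested.

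**Figure D3:**
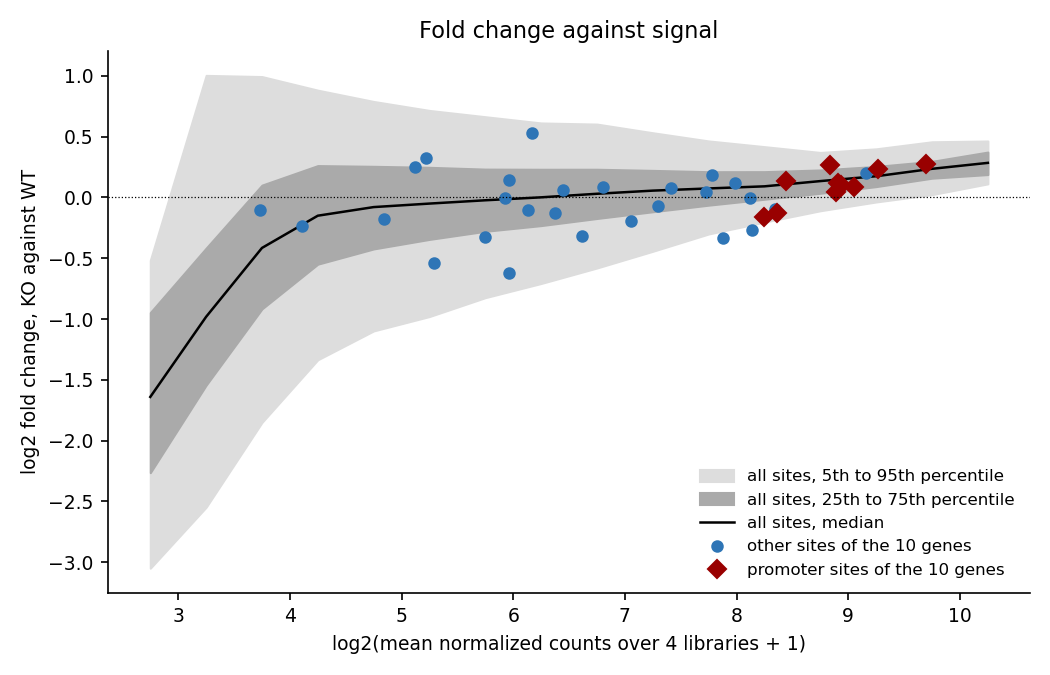
Log2 fold change of KO against WT plotted against log2 of the mean normalized counts plus 1, for the 37 sites over the percentile bands of all 82325 sites. The promoter sites, red diamonds, lie at the right, where the median of all sites itself is above 0.

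The spread within a genotype was of the same order as the difference between genotypes. At the 10 promoters the median absolute difference was 0.08 on the log2 scale between the WT lines and 0.19 between the KO lines, against a median absolute log2 fold change of 0.13. Over the 37 sites the corresponding values were 0.17, 0.21 and 0.14. Each was lower than in the table as a whole, where the medians were 0.34, 0.43 and 0.25, and the 37 sites were also stronger, with a median of 169.5 normalized counts against 52.

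Levels of different genes can be compared per length of site. Asf1b had the most accessible promoter of the 10, with a mean of 780.2 normalized counts per kb and a range of 666 to 975 over the libraries. It ranked first in every library and exceeded 99.4% of protein-coding promoter sites per kb. Cabin1 followed with 473 and Hira with 463, then Rbbp4 with 458, Chaf1b and Ubn1 with 416 each, Chaf1a with 386 and Asf1a with 357. Ipo4 had 355 (311 to 407), and Nasp, last in every library, had 291 (277 to 308), higher than 58.3% of protein-coding promoter sites. This order depends on site length. By mean value without regard to length, Nasp, with a site of 1825 bp, had 530.75 normalized counts, above 91.7% of protein-coding promoter sites. Cabin1, with a site of 694 bp, had 328, above 69.4%. Of the 9 neighbouring pairs in the order per kb, the ranges over libraries were separate only between Asf1b and Cabin1 and between Ipo4 and Nasp. The ASF1 paralogues thus stood far apart in level, 780.2 against 357 normalized counts per kb, while their log2 fold changes were 0.28 and 0.27 on the deposited scaling and 0.03 and 0.12 after quantile normalization.

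The 27 sites not taken as the promoter site of a gene had a median log2 fold change of -0.07, with 11 above 0 and 16 below. Both KO lines were lower at 6 of them (22.2%, against 14.3% of all sites) and higher at 2 (7.41%, against 14.6%), and nothing particular to these sites is read from counts this small. These sites were weaker, with a median of 86 normalized counts against 476 at the promoter sites. Not all of them lay away from promoters. Asf1a site 2 and Cabin1 site 1 each held a TSS of their own gene, and others, such as Asf1b site 3, held that of another gene. The comparison is therefore not one of promoters with distal sites. None of the 27 had p under 0.05.

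Summing all sites of a gene gave 1 value per library. None of the 10 genes was called on these sums (0.299% of 17052 protein-coding genes were), none had an unadjusted p under 0.05 and the lowest adjusted p in limma was 0.928. The sums of Asf1b were 1323 and 1399 normalized counts in WT and 1472 and 1747 in KO, a log2 fold change of 0.24 (SE 0.13), the highest of the 10. Those of Rbbp4 were 731 and 805 in WT and 840 and 955 in KO, with 0.22 (SE 0.13). At the other end Cabin1 had 1210 and 1254 in WT and 1036 and 1134 in KO, with -0.18 (SE 0.11). Both KO lines were higher on the sums of Rbbp4, Asf1b, Hira and Ubn1 (4 of 10, against 23% of genes) and lower on that of Cabin1 (1 of 10, against 11.7%). The 10 genes had larger sums, with a median of 815.9 normalized counts against 383.5 over all genes. These shares are therefore not matched for signal, and nothing particular to the 10 genes is read from them.

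The study described HAT1-dependent accessibility domains, long runs of sites with lower accessibility in KO, in primary MEFs. It reported much the same patterns when ATAC-Seq was repeated in immortalized MEFs. The window part of its rule, 25 consecutive sites with a mean log2 fold change under -0.58, was applied here to the immortalized lines. The study's further step of joining neighbouring regions across gaps of limited length was not used. The input was fold changes from limma, so both the cells and the input differ from those the rule was made for. No window centred on one of the 10 promoter sites was under the cutoff of -0.58. Window means ranged from -0.25 at Ipo4 to 0.10 at Nasp and spanned 0.223 to 1.41 Mb. At Ipo4 both KO libraries gave -0.25 against the WT mean, but the WT lines differed by 0.41 there. The Asf1a window had a mean of -0.22, with -0.39 for the first KO line and -0.05 for the second, and that of Hira -0.20, with -0.06 and -0.34, with WT lines that differed by 0.37. Leaving out single libraries moved the lowest window mean between -0.46 (without WT replicate 2) and -0.14 (without WT replicate 1), still above the cutoff. The centre site of the nearest window under the cutoff was 2.58 Mb from the promoter site at the closest, for Chaf1a, and 29.1 Mb away for Ubn1. Distances to the edges of those windows were not measured.

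**Figure D4:**
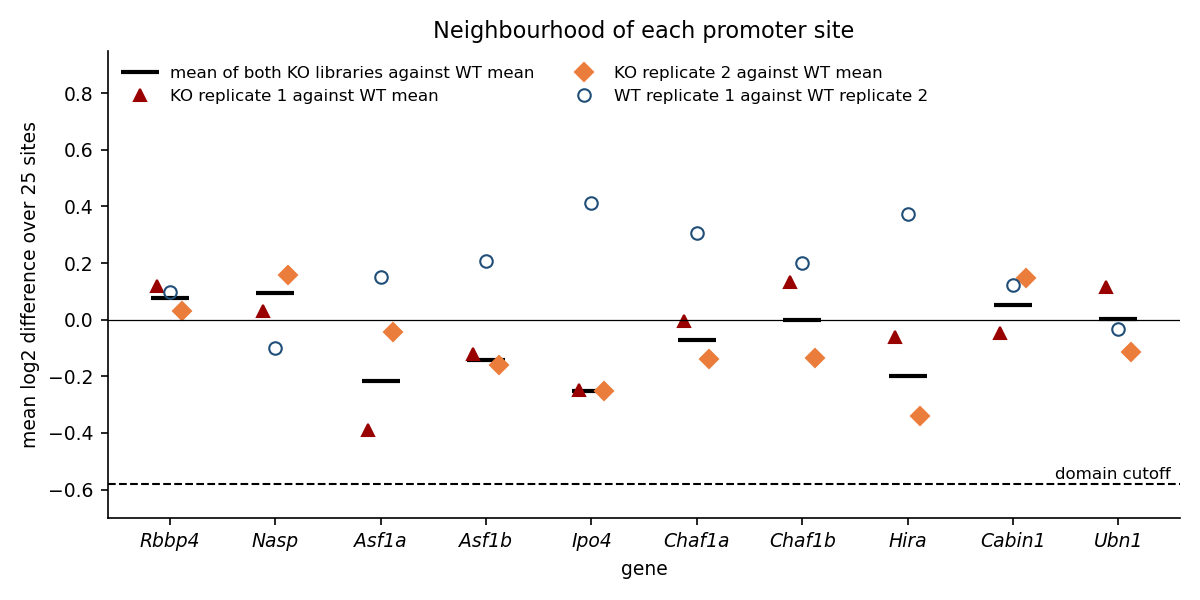
Mean log2 difference over the 25 sites centred on each promoter site, for both KO libraries together, for each KO library against the WT mean, and for WT replicate 1 against WT replicate 2, with the domain cutoff of -0.58 dashed. Every window mean lies above the cutoff, and at Ipo4 and Hira the WT lines differ from each other by more than the KO lines differ from WT.

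Other genes of the pathway were taken from 2 lists. The first held 17 further partners, H3-H4 chaperones and cofactors, of which 16 had sites and Hjurp, the chaperone of the centromeric H3 variant, had none. None of their 56 sites was called or had p under 0.05. Their promoter sites had a median log2 fold change of 0.11, with 12 above 0 and 4 below. Spty2d1, a chaperone of H3-H4, had the highest, 0.29 (SE 0.19), with 323 and 338 normalized counts in WT and 341 and 477 in KO. Ubn2, the paralogue of Ubn1, had 475 and 460 in WT and 533 and 594 in KO, a log2 fold change of 0.27 (SE 0.11) with the lowest p of the list, 0.0534 in limma. Hat1 had 0.05 and Rbbp7, the RbAp subunit of the HAT1 complex, 0.21 (SE 0.20). Dnajc9, which couples H3-H4 to heat shock chaperones and lies on chromosome 14 like Ipo4, had the lowest, -0.23 (SE 0.20), with 345 in WT replicate 1 and 247 to 259 in the other libraries.

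The second list held 10 chaperones of H2A-H2B or of histones in general. None of its 37 sites was called or had p under 0.05, the median of its promoter sites was 0.14, and 9 of 10 lay above 0. Ssrp1, a subunit of the FACT complex, had the highest log2 fold change, 0.31 (SE 0.20), with 285 and 222 normalized counts in WT and 288 and 340 in KO. Its site lies outside the gene body, 2220 bp from the nearest Ssrp1 TSS, and nearness alone does not tie it to Ssrp1. Supt16, the other FACT subunit and again on chromosome 14, had the lowest, -0.14 (SE 0.17). The medians of all 3 gene groups, 0.11, 0.11 and 0.14, lay beside 0.13 for strong promoters and 0.04 for the promoter sites of all 14858 protein-coding genes that had one. The first list holds weaker promoters than the 10 genes, with a median of 274 normalized counts against 476, so the strong promoters are no matched reference for it.

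**Figure D5:**
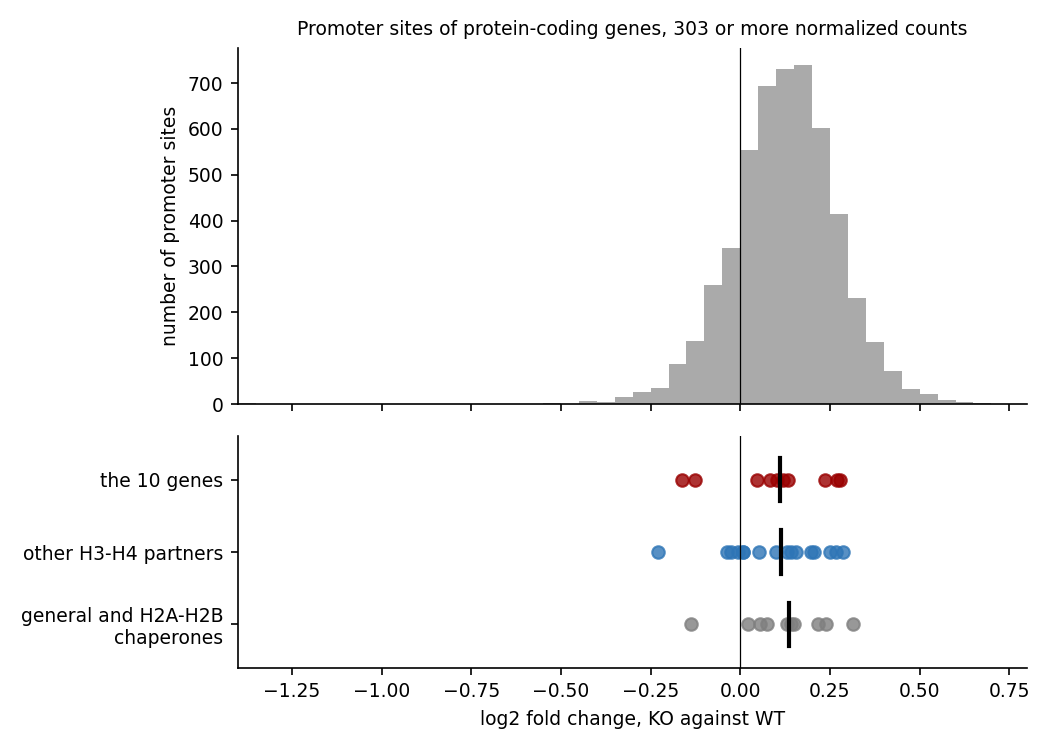
Top, number of protein-coding promoter sites with a mean of at least 303 normalized counts by log2 fold change of KO against WT, in bins of 0.05. Bottom, the promoter sites of the 10 genes and of both further lists, with a black bar at each median, at 0.11, 0.11 and 0.14. The first list also holds promoters weaker than those counted in the top panel.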

How the data were processed

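ATAC-Seq libraries of 2 WT and 2 KO lines were analysed. Per the submitters' processing notes and the study's methods, paired-end reads had been mapped on mm10 by BWA 0.7.12, peaks came from MACS2 2.1.0 and DESeq2 was the authors' tool for differences. The deposited values are a score: the authors divided read counts in merged regions by a factor per library and rounded to whole numbers. Read filters, the Tn5 offset and whether reads or fragments were counted are not given in the sources used here. The table also holds the authors' fold changes, p-values and adjusted p-values, which were not used.

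Depth was estimated from the regular pattern of absent and frequent whole numbers that scaling leaves, and is approximate. Since raw counts were not held, log2(value + 1) was fitted with limma 3.58.1 (R 4.3.3, intensity trend, genotype as the only term) over all 82325 sites, with two-sided p-values and Benjamini-Hochberg adjustment. Fold changes on this scale understate those of low sites. Gene sums were fitted in the same way. The script was tested on simulated data. Genes and TSSs came from GENCODE M21 and promoter windows from RefSeq. Replicates were numbered in accession order, which pairs nothing. Python 3.11.15 with pandas 2.3.3 was used otherwise.

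Named sites were the promoter site of every gene, its strongest other site, and, among other sites at or above the all-site median, the 3 lowest and 3 highest log2 fold changes, beside called sites, of which there were none. Further sites named (Chaf1b site 3, Asf1b site 2, Ubn1 site 3, Hira site 5 and the weak Ipo4 site) were chosen after their values were seen. The genes, lists and tests were chosen with earlier results of these data known. Alternatives were another pseudocount, equal totals, quantile normalization, a filter on low values, chromosome medians subtracted, no intensity trend, other window sizes and membership rules, and leaving out each library.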

Additional observations from a re-analysis of the deposited data

How the results depend on the processing

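No site of the 10 genes was called under the alternatives tried, and no gene sum under those run for sums, which left out the other membership rules. Sites with an unadjusted p under 0.05 in limma numbered 2 of 37 with chromosome medians subtracted (promoters of Rbbp4 and Asf1a; 3.36% of all sites) and 3 of 37 without KO replicate 1 (the same and Asf1b; 5.90% of all sites), and 0 under the other settings. Gene sums with such a p numbered 1 of 10 with quantile normalization (Cabin1; 2.82% of all genes) and 1 of 10 without KO replicate 1 (Asf1b; 8.66%). The median log2 fold change of the promoter sites, 0.11, became -0.0441 under quantile normalization and ranged from 0.07 (without KO replicate 2) to 0.12 (without KO replicate 1) as single libraries were left out. That of all 37 sites, 0.05, ranged from -0.01 (without KO replicate 2) to 0.06 (without WT replicate 1). Promoter sites that changed sign were Hira with equal totals (-0.0219); Nasp (-0.0801), Chaf1b (-0.0323), Hira (-0.107) and Ubn1 (-0.0558) with quantile normalization; and Ipo4 (0.0490) with chromosome medians subtracted. Hira ranged from -0.0045 (without WT replicate 2) to 0.0974 (without WT replicate 1) as libraries were left out. The cause of these shifts was not tested. Without 1 library the lone sample is assumed to vary like the other genotype. The number of sites called in the whole table, 307, ranged from 36 (without WT replicate 2) to 612 (without KO replicate 2). Depth limits the weak sites most: the weakest of the 37 had about 7.3 reads in its lowest library. No paired analysis was possible because the labels give no replicate numbers. The names of WT replicate 1 and KO replicate 2 share a line number, but the labels do not say what it marks and the other lines share none.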
